A study of Mus musculus with 6 samples.

Results

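The genes described here encode the structural proteins of the extracellular matrix of the brain and the secreted proteases that trim them: collagen chains, laminin subunits, ADAMTS proteases, the chondroitin sulfate proteoglycans Ncan, Bcan, Vcan and Acan, the link protein Hapln1, and the matrix glycoproteins Fn1, Tnc, Tnr, Sparc and Sparcl1. A gene was taken in when its protein-coding mouse symbol had the form of a collagen chain (Col, number, a, number), a laminin subunit or a numbered Adamts gene, or was among the 10 names listed. This gave 84 of the 43346 genes in the count table, namely 44 collagens, 11 laminins, 19 Adamts genes and the 10 named genes. All 84 had at least 1 count, and 67 of them reached at least 1 CPM (a count divided by the total of its library, so that libraries share a scale) in 3 or more libraries, the level set for comparing treatments, as did 15311 genes of the whole table. Just inside that limit was Col1a1. After TMM scaling, which adjusts library totals for their composition and was applied after the limit, it had 1.71, 1.05 and 0.41 CPM in the vehicle libraries and 1.22, 1.09 and 0.77 CPM in the 10HDA libraries, and just outside it was Col14a1, with 0.99, 1.05 and 1.08 CPM and 0.96, 0.65 and 0.55 CPM.

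The libraries came from cortical cells of fetal mice, taken at gestational day 15.5 and grown in primary culture. Cultures 1, 3 and 4 each gave 1 library after the vehicle, DMSO, and 1 after 1 mM 10HDA (trans-10-hydroxy-2-decenoic acid, a fatty acid of royal jelly), so that there were 3 libraries per treatment. Both treatments carry the same labels otherwise: strain Cyp19-EGFP, a line in which a transgene places EGFP under the control of the aromatase gene, and genotype SRY+, that is, male, although C57BL/6 embryos are named in the methods of the study. Neither the number of embryos behind a culture nor the time under treatment is given in the sources used here. The comparison asked how 10HDA by itself alters RNA levels in fetal cortical cells.

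Brain tissue differs from most organs in that its matrix holds little fibrillar collagen. It is built on the polysaccharide hyaluronan, to which the lecticans (Ncan, Bcan, Vcan and Acan) bind, with Hapln1 locking that bond and the tenascins Tnc and Tnr bridging neighbouring lecticans. Laminins and type IV collagen form the basement membranes around brain vessels and under the pial surface, while ADAMTS proteases cut lecticans or remove the propeptides of procollagen.

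The libraries held 9144736 to 13367194 counts on genes, so that 3 counts were worth 0.22 to 0.33 CPM, a limit that covers counting error only. Markers of neurons were present throughout, with a summed level of 6184 to 7807 CPM for 9 genes. In both libraries of culture 1, Uty, Kdm5d, Ddx3y and Eif2s3y, which lie on the Y chromosome, had a summed level of 8.83 and 9.41 CPM before that scaling, against 90.0 to 131 CPM in the other 4 libraries, which goes against the label SRY+. Calls of matrix genes are therefore also given without culture 1, whereas markers and lists of other genes are given with all 3 cultures only. In bulk RNA, fewer cells of a type and less RNA per cell cannot be told apart. Levels of all other genes and lists are CPM after TMM scaling, and values per library are always in the order of cultures 1, 3 and 4.

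Neurocan (Ncan), a lectican of the developing brain, was the most abundant matrix transcript and took 45.4% of all matrix CPM in the vehicle libraries. Together with Sparcl1, Vcan, Bcan, Tnc and Tnr, the only 6 genes whose mean level was at least 100 CPM, it made up 78.7% of matrix CPM with vehicle and 74.8% with 10HDA. The median level over the 84 genes was 5.15 CPM, and 27 genes had at least 10 CPM in at least 3 libraries.

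Levels can be ranked between genes only per length of transcript. Per kilobase, the vehicle libraries had 222 ± 25.8 CPM of Ncan (SD, n = 3), 120 ± 16.4 of Sparcl1, which encodes a secreted protein of astrocytes, and 58.4 ± 0.43 of brevican (Bcan). These 3 genes were separated from one another and from the next beyond the range of their libraries. Below them came Tnc with 19.8 ± 2.23, Vcan with 18.5 ± 4.65, Sparc with 14.8 ± 1.83, Tnr with 10.5 ± 3.26 and Col4a2 with 9.37 ± 1.05 CPM per kilobase, and the ranges of neighbours in this order overlapped. Adamts3 (6.83 ± 0.058), Adamts10 (6.68 ± 0.078), Col4a1 (6.66 ± 1.04) and Lamc1 (6.25 ± 0.71) followed, of which the last 3 overlapped with a neighbour. The lengths are those deposited with the counts, 7663 bases for Adamts3 and 5453 for Adamts10. GENCODE exons cover 5430 and 8254 bases of these 2 genes, so their places depend on the length used. The basement membrane genes Col4a1, Col4a2 and Lamc1 were thus below Ncan, Bcan and Vcan per kilobase.

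**Figure D1:**
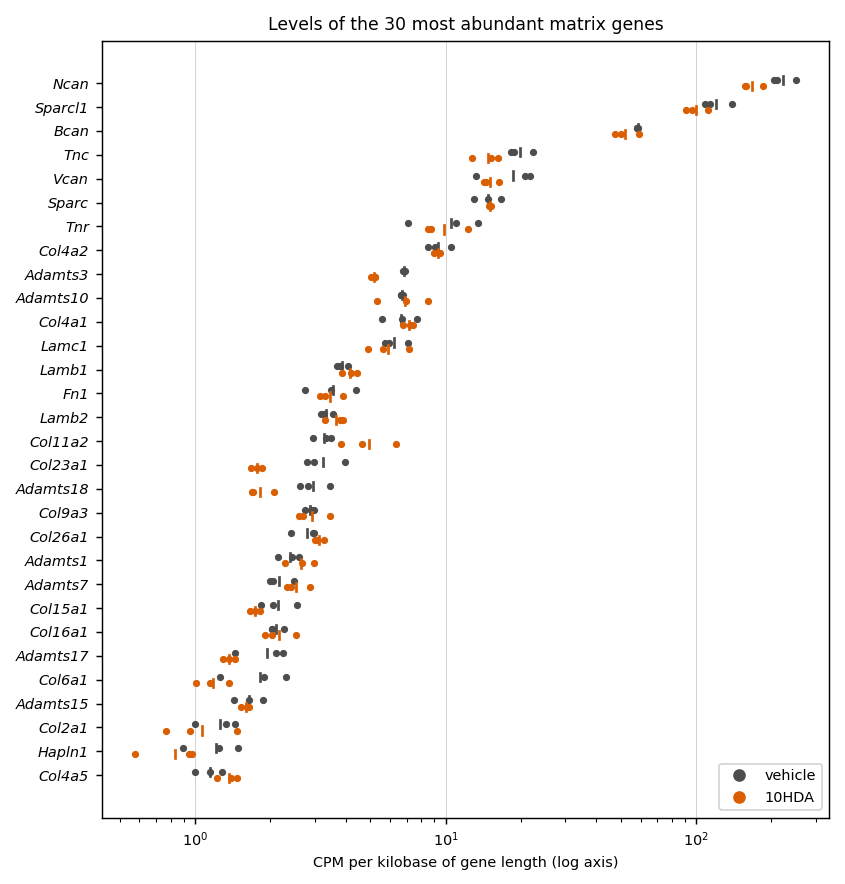
Level of the 30 most abundant matrix genes in CPM per kilobase of gene length, on a log axis, with 1 point per library (gray, vehicle; orange, 10HDA; n = 3 each) and a tick at each group's mean. Ncan, Sparcl1 and Bcan stand above all others. The 10HDA points of Ncan, Tnc, Adamts3, Col23a1, Adamts18, Col15a1 and, only just, Adamts17 lie below every vehicle point. Those of Col11a2 and Col26a1 lie above every vehicle point.

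Classical fibril-forming collagens of connective tissue were hardly counted. Col1a1 was at 0.41 to 1.71 CPM, while Col1a2, with a mean of 0.54 CPM, and Col3a1, with a mean of 0.23 CPM, were not tested, and the 17 genes left untested had means of 0.059 to 0.88 CPM. Markers of meningeal fibroblasts, cells that make such collagens at the brain surface, had a summed level of only 1.05 to 1.80 CPM over 10 genes, and Foxc2, Tbx18, Twist1 and Slc6a13 had no count in any library. Endothelial markers summed to 1.53 to 2.98 CPM over 10 genes and microglial markers to 0.87 to 1.22 CPM over 9 genes.

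The summed level of the 84 genes was 3186, 3416 and 3937 CPM with vehicle and 2762, 2857 and 3132 CPM with 10HDA. Every 10HDA library thus lay below every vehicle library. Without Ncan the sums were 1718, 1907 and 2129 CPM and 1631, 1722 and 1798 CPM, lower with 10HDA in each culture but with overlapping ranges. Without the 6 most abundant genes, the means were 749 ± 56.8 and 736 ± 7.85 CPM (SD, n = 3 each). Summed over families, collagens were at 306 ± 22.8 CPM with vehicle and 307 ± 14.7 CPM with 10HDA, laminins at 142 ± 11.9 and 148 ± 12.0 CPM, and Adamts genes at 201 ± 9.49 and 184 ± 11.5 CPM.

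Treatments were compared over all 15311 genes by the quasi-likelihood test of edgeR, at a Benjamini-Hochberg adjusted p of 0.1, first without regard to culture, as the methods of the study name no such term, and then with culture as a block, since the labels place 1 library of each treatment in every culture. Adjusted p-values below are from that test over all genes, and log2 fold changes, with their standard errors, are those without the block unless stated. Without the block, 78 genes passed, or 0.509% (28 or 0.183% above vehicle with 10HDA and 50 or 0.327% below; with library size alone in place of TMM, 30 of 58 were above). They included 2 of the 67 matrix genes, Lama1, which rose, and Col23a1, which fell. With the block the number was 1148, or 7.50% (600 or 3.92% above and 548 or 3.58% below; with library size alone, 1089 of 1461 were above). Of the matrix genes 13 now passed, of which Lama1 and Col11a2 rose and Col23a1, Adamts18, Adamts3, Tnc, Col22a1, Ncan, Lama3, Lama2, Col5a1, Adamts17 and Col6a1 fell.

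Before adjustment, 17 matrix genes had p under 0.05, which held for 10.4% of all genes tested. In 17 matrix genes the vehicle and 10HDA libraries did not overlap, against 13.8% of all genes: 10HDA lay above in 5 (Lama1, Col11a2, Col5a3, Col5a2 and Col26a1; 7.30% of all genes) and below in 12 (6.47% of all genes). Of the 67 genes, 35 differed in the same direction in all 3 cultures, as did 38.8% of all genes. The median log2 fold change of the 67 genes was -0.038, with 29 above 0 and 38 below, against a median of 0.013 over all genes, and it became 0.025, with 36 above 0, when counts were scaled by library size alone, which moved the median of all genes to 0.075. By culture, the median over matrix genes was 0.016, -0.0067 and -0.18. By role, medians ran from -0.53 for the 2 tested membrane collagens and -0.41 for the 5 lecticans and link protein genes to 0.14 for the 8 fibrillar collagens and 0.16 for the 8 ADAMTS genes outside the procollagen-cleaving and lectican-cleaving groups.

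**Figure D2:**
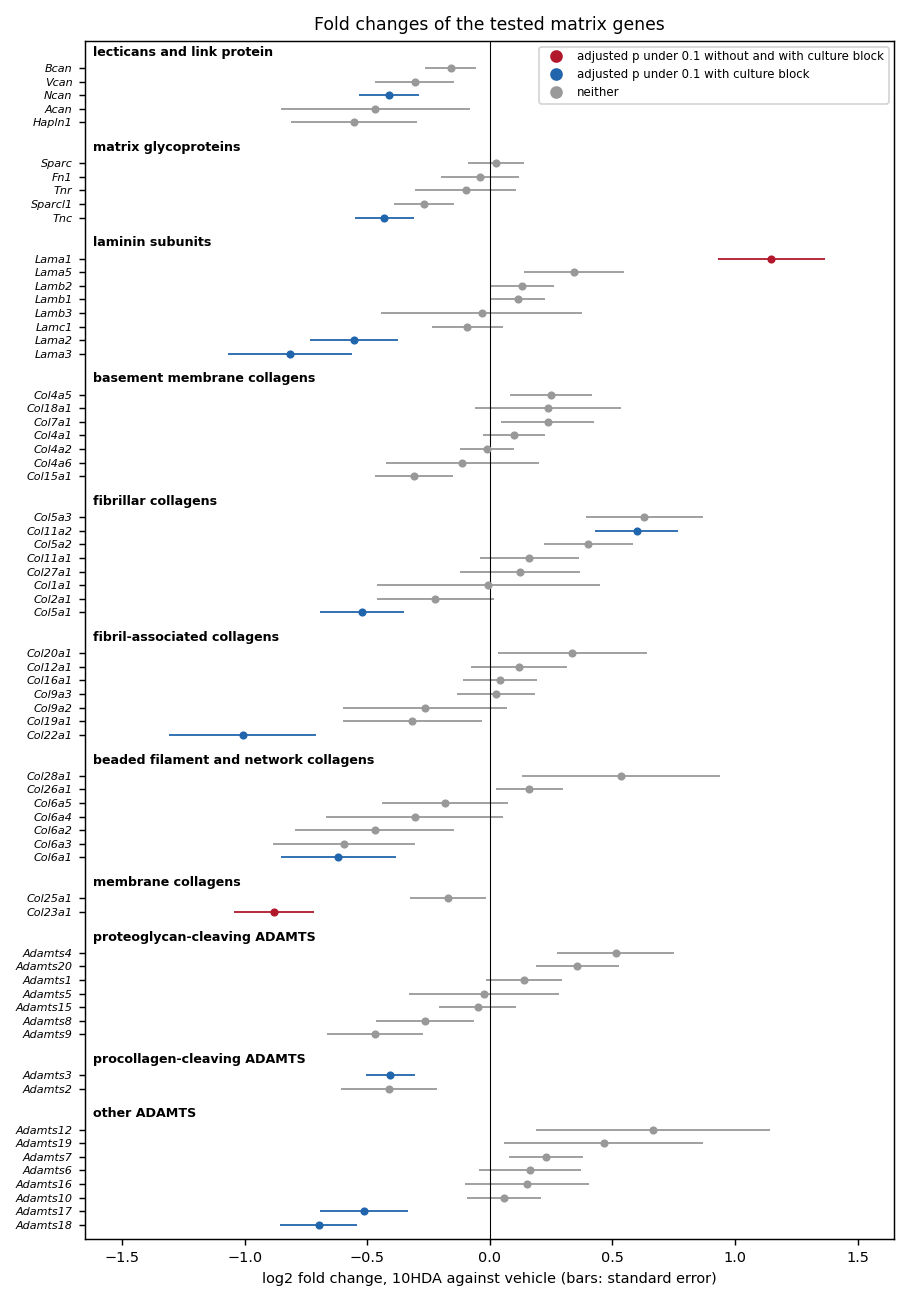
Log2 fold change of 10HDA against vehicle for the tested matrix genes by role, all but 1 of the 67, with bars for the standard error (n = 3 per treatment). Lama1 and Col23a1 (red) passed an adjusted p of 0.1 without and with culture as a block, 11 further genes (blue) only with it, and all 5 lecticans and link protein genes lie below 0.

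Lecticans and their link protein were all lower with 10HDA in the mean, in 5 of 5 genes under each of 4 scalings, and Ncan was the member that passed the test. Ncan was counted at 1468, 1509.7 and 1808 CPM with vehicle and at 1131, 1136 and 1334 CPM with 10HDA. The groups did not overlap, and in each culture the 10HDA library was the lower. The log2 fold change was -0.41 ± 0.12 (SE), with an adjusted p of 0.28 without and 0.012 with the culture block. The call with the block was lost without culture 4 (adjusted p = 0.12) and held without culture 1 (0.016) or culture 3 (0.022).

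The other lecticans and Hapln1 did not pass with or without the block. Versican (Vcan), a lectican of oligodendrocyte precursors and of migrating cells, had 191, 313 and 300 CPM with vehicle and 205, 209 and 236 CPM with 10HDA, so that culture 1 went up where cultures 3 and 4 went down. Its log2 fold change was -0.31 ± 0.16, and without culture 1 the blocked value was -0.47 with an adjusted p of 0.011. Bcan, a lectican of astrocytes, had 236, 239 and 237 CPM with vehicle and 194, 240 and 203 CPM with 10HDA, a log2 fold change of -0.16 ± 0.10. Here the 10HDA library of culture 3 reached the vehicle level. Hapln1 (6.29, 4.52 and 7.53 CPM against 4.78, 2.91 and 4.93 CPM) was lower with 10HDA in each culture, at -0.55 ± 0.26, with a blocked adjusted p of 0.11. Aggrecan (Acan), the lectican typical of mature perineuronal nets, was near the limit of 1 CPM, with 1.80, 2.03 and 2.57 CPM and 2.26, 0.65 and 1.86 CPM.

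Among the matrix glycoproteins, tenascin-C (Tnc), an adhesion-modulating protein of radial glia and young astrocytes, fell in the fit with the block. Its level was 146, 142 and 174 CPM with vehicle and 98.9, 118 and 126 CPM with 10HDA. No 10HDA library reached the lowest vehicle library, the log2 fold change was -0.43 ± 0.12, and the adjusted p was 0.24 without and 0.0097 with the block. Without culture 4 the blocked adjusted p was 0.11, and without cultures 1 and 3 it was 0.061 and 0.00019. Sparcl1 was at 354, 337 and 433 CPM with vehicle and at 284, 301 and 349 CPM with 10HDA. It was lower in each culture (-0.27 ± 0.12), but the ranges overlapped and the adjusted p with the block was 0.103, short of the threshold. In the blocked fit Sparcl1 passed, as lower, without culture 3 (0.056), with DESeq2's size factors (0.093) and with limma-voom (0.092). Its relative Sparc, a collagen-binding protein, had 49.7, 43.7 and 56.0 CPM and 51.0, 50.3 and 50.7 CPM. Fibronectin (Fn1), the adhesive ligand of several integrins, had 32.2, 40.7 and 51.1 CPM and 38.7, 36.8 and 45.6 CPM, and its log2 fold change of -0.040 ± 0.16 turned to 0.025 with library size alone.

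Markers of astrocytes were lower with 10HDA in the same libraries. Over 11 genes they summed to 1223 to 1505 CPM with vehicle and to 965 to 1185 CPM with 10HDA. Gfap, Aldh1l1 and Aldoc passed the test without the block (3 of 9 tested, against 0.509% of all genes). With the block 4 of 9 fell (44.4%, against 7.50%). Of the 9 tested, 8 were lower in the mean, Fgfr3 was higher in each culture without passing (log2 fold change of 0.19 ± 0.11), and Gjb6 and S100b were not tested. Oligodendrocyte lineage markers summed to 335 to 424 CPM and to 258 to 367 CPM, and 6 of 8 tested were lower in the mean. Of these, Pdgfra, Sox10 and Gpr17 passed in the blocked fit (37.5% of the 8, against 7.50% of all genes). Olig2 lay above vehicle in every 10HDA library (0.25 ± 0.10) and Olig1 was at 0.071 ± 0.12, and neither passed. Neuronal markers summed to 7330 to 7807 CPM and to 6184 to 7034 CPM. Of the 9 tested, 8 were lower in the mean, and 3 fell in the blocked fit (33.3%, against 7.50% of all genes). Radial glia markers summed to 769 to 941 CPM and to 712 to 804 CPM. Of the 8 tested, 5 were lower in the mean, and in the blocked fit 1 rose and 1 fell (25%, against 7.50%). The part of these differences in the lower Ncan, Tnc and Sparcl1 levels was not tested.

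Laminin subunits moved in both directions, and of the 9 tested 33.3% passed with the block, against 7.50% of all genes. Laminin heterotrimers hold 1 alpha, 1 beta and 1 gamma chain, and the beta and gamma chains most counted here, Lamb1, Lamb2 and Lamc1, did not pass the test, whereas 3 of the tested alpha chains did with the block. Lama1, the alpha chain of the early embryonic laminin (chr17:67697259-67822647, GRCm38, plus strand), was counted at 4.13, 5.12 and 5.05 CPM with vehicle and at 12.9, 7.56 and 11.5 CPM with 10HDA. All 10HDA libraries were above all vehicle libraries, and the mean rose from 4.77 ± 0.55 to 10.7 ± 2.79 CPM (SD, n = 3), a log2 fold change of 1.15 ± 0.22 (SE) with an adjusted p of 0.062 without and 0.00088 with the block. The call without the block was lost on leaving out the vehicle library of culture 1, 3 or 4 (adjusted p = 0.14, 0.18 and 0.24) or the 10HDA library of culture 1 (0.40), while the call with the block held without culture 1 (0.022), culture 3 (6.5e-08) or culture 4 (0.0026).

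Lama2, the alpha chain of vascular and muscle laminin, was counted at 7.72, 10.2 and 11.2 CPM with vehicle and at 6.60, 6.83 and 6.36 CPM with 10HDA. Lama3, an alpha chain of epithelial laminins, was at 2.42, 2.79 and 2.90 CPM and at 1.39, 1.74 and 1.42 CPM. In both genes every 10HDA library was below every vehicle library, and both fell in the blocked fit (-0.55 ± 0.18 at an adjusted p of 0.066 and -0.82 ± 0.25 at 0.088, both log2 fold changes). Each of these calls was close to the threshold: that of Lama2 was lost without culture 3 (0.105) or culture 4 (0.43), and that of Lama3 whichever culture was left out (0.14 to 0.36) or with library size alone (0.102). Lama5, an alpha chain of vessel basement membranes, had 7.0, 9.26 and 12.4 CPM and 13.4, 12.7 and 10.3 CPM, a log2 fold change of 0.34 ± 0.20 that did not pass. It was higher with 10HDA in cultures 1 and 3 and lower in culture 4, and without culture 4 it passed with the block (0.66, adjusted p = 0.068). The chains shared by most laminins showed smaller differences, at 0.11 ± 0.11 for Lamb1, 0.13 ± 0.13 for Lamb2 and -0.091 ± 0.14 for Lamc1. After Tnr, Lamc1 had the largest F between cultures of the matrix genes, without passing that test, with 47.6, 49.1 and 58.4 CPM against 40.4, 46.6 and 59.0 CPM.

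Of the 7 tested collagens of basement membranes, none passed without or with the block, against 0.509% and 7.50% of all genes. A count of 0 of 7 is near those shares. The type IV chains Col4a1 and Col4a2, which assemble into the main network of these sheets, were at 38.1, 45.8 and 52.3 CPM against 49.1, 50.7 and 46.0 CPM, and at 60.2, 56.2 and 69.7 CPM against 62.6, 62.2 and 59.6 CPM. Their log2 fold changes were 0.099 ± 0.13 and -0.011 ± 0.11, the second of which turned to 0.053 with library size alone. Col15a1, which links basement membranes to the matrix beneath, was the member with the smallest p, at 13, 11.7 and 16.2 CPM against 11, 10.5 and 11.5 CPM. Its groups did not overlap, but the log2 fold change of -0.31 ± 0.16 had an adjusted p of 0.52, and 0.27 with the block.

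Of the 8 tested fibrillar collagens, Col1a1 included, 4 had groups that did not overlap, against 13.8% of all genes, and 2 passed with the block, against 7.50%. Col11a2, a minor chain that nucleates fibrils in cartilage, was at 22.8, 23.9 and 20.2 CPM with vehicle and at 43.2, 31.7 and 26.2 CPM with 10HDA. All 10HDA libraries were higher, that of culture 1 by most, and Col11a2 rose in the blocked fit (log2 fold change of 0.60 ± 0.17, adjusted p = 0.25 without and 0.0078 with the block). Without culture 1, which had the largest difference and the low Y-linked counts, the blocked adjusted p was 0.14, and without culture 3 or 4 it was 0.00023 and 0.013.

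Of the 3 chains of type V collagen, which sets the width of type I fibrils, 1 passed. Col5a1, whose product is in nearly all type V trimers, was at 7.0, 8.06 and 7.94 CPM with vehicle and at 5.82, 5.16 and 5.04 CPM with 10HDA, and fell in the blocked fit (log2 fold change of -0.52 ± 0.17, adjusted p = 0.093), a call lost without culture 3 (0.23) or culture 4 (0.38). With the block it was also lost with library size alone (0.12), limma-voom (0.101) and DESeq2's Wald test (0.50). Its partners Col5a2 (5.75, 6.25 and 5.79 against 9.38, 6.83 and 7.34 CPM) and Col5a3 (2.33, 2.03 and 1.99 against 3.82, 3.13 and 2.85 CPM) lay above vehicle in every 10HDA library. Neither passed, at 0.40 ± 0.18 and 0.63 ± 0.24, with blocked adjusted p-values of 0.23 and 0.16, though with the block and library size alone Col5a3 did (0.099). The difference between the chains was not tested. Col11a1, Col2a1 and Col27a1 were at 3.84 to 10.1 CPM and overlapped between the treatments.

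In the remaining collagens, 1 of 2 tested membrane, 1 of 7 fibril-associated and 1 of 7 beaded filament and network genes passed with the block. Of all genes 7.50% passed with it, and these collagens that passed all fell. Col23a1, a transmembrane collagen whose ectodomain can be shed (chr11:51289920-51583918, GRCm38, plus strand), was counted at 16.0, 17.1 and 22.8 CPM with vehicle and at 9.56, 10.2 and 10.6 CPM with 10HDA. The groups were far apart relative to their spread, and the mean fell from 18.6 ± 3.63 to 10.1 ± 0.54 CPM (SD, n = 3), a log2 fold change of -0.88 ± 0.16 (SE) with an adjusted p of 0.054 without and 0.00056 with the block. Without the block the call was lost on leaving out the vehicle library of culture 3 or 4 (adjusted p = 0.16 and 0.25) or the 10HDA library of culture 1 or 3 (0.37 and 0.15), while with the block it held without culture 1 (0.0021), culture 3 (7.8e-06) or culture 4 (0.011). Col25a1, a transmembrane collagen of neurons, had 11.6, 9.56 and 10.3 CPM against 9.99, 8.87 and 8.99 CPM, a log2 fold change of -0.17 ± 0.15 that did not pass.

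Col22a1, a collagen of tissue junctions, was at 3.23, 2.86 and 4.72 CPM with vehicle and at 2.43, 1.31 and 1.64 CPM with 10HDA, and its groups did not overlap. Its log2 fold change was -1.01 ± 0.30, with an adjusted p of 0.28 without and 0.032 with the block, and the call with the block was lost without culture 4 (0.30). Col16a1, the most abundant of the fibril-associated collagens by CPM, had 13.6, 13.6 and 15.3 CPM against 12.9, 17.1 and 13.7 CPM, which overlapped. Type VI collagen makes beaded filaments around cells, and its chain Col6a1 was at 10.1, 5.50 and 8.28 CPM with vehicle and at 6.0, 4.43 and 5.04 CPM with 10HDA. The ranges overlapped through the vehicle library of culture 3, while each culture had less with 10HDA. Col6a1 passed with the block (log2 fold change of -0.62 ± 0.23, adjusted p = 0.38 without and 0.055 with it), but not without culture 1 (0.24) or culture 4 (0.27). Its partner chains Col6a2 and Col6a3 had log2 fold changes of -0.47 ± 0.32 and -0.59 ± 0.29 and did not pass, although without culture 3 Col6a3 fell in the blocked fit (-1.11, adjusted p = 0.0093). Col26a1, the most abundant gene of the beaded filament and network group, was at 17.4, 14.2 and 17.3 CPM against 19.2, 17.5 and 17.9 CPM, above vehicle in each 10HDA library by 0.16 ± 0.14 on the log2 scale.

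Pericyte markers, which include genes of cells that deposit type VI collagen around vessels, summed to 38.3 to 45.8 CPM with vehicle and to 27.0 to 34.4 CPM with 10HDA over 7 genes. Pdgfrb passed the test and Notch3 did not. The defining markers Kcnj8, Abcc9, Anpep and Higd1b were at 0 to 0.22 CPM and Rgs5 at 0 to 0.88 CPM, so the sum was almost wholly Pdgfrb and Notch3. The part of this difference in the lower Col6a1 and Lama2 levels was not tested.

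**Figure D3:**
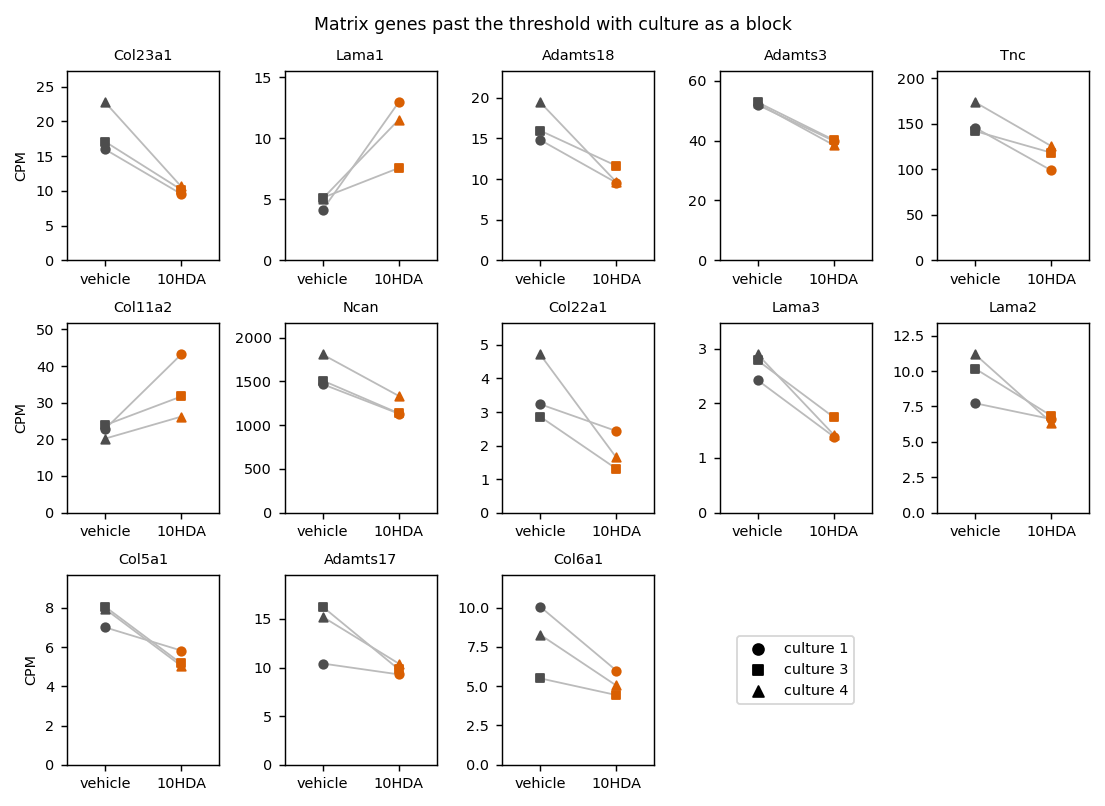
CPM after TMM scaling in each library for the 13 matrix genes past an adjusted p of 0.1 with culture as a block, with a line joining the vehicle and 10HDA libraries of a culture. In each panel all 3 lines run the same way, up for Lama1 and Col11a2 and down for the other 11 genes.

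With the block, 1 of 2 tested procollagen-cleaving ADAMTS genes, 2 of 8 others and 0 of 7 lectican-cleaving ones passed. Of all genes 7.50% passed with it, so that 0 of 7 is near the share of all genes. The ADAMTS genes that passed all fell. Adamts3, which removes the amino-terminal propeptide of procollagen and can cut reelin, was the most abundant Adamts gene, at 51.9, 52.8 and 52.4 CPM with vehicle and at 39.9, 40.2 and 38.5 CPM with 10HDA. Replicates were tight and the groups well apart (log2 fold change of -0.41 ± 0.10, adjusted p = 0.17 without and 0.022 with the block). Without culture 4 the blocked adjusted p was 0.19. Adamts2, of the same procollagen-trimming group, was at 5.57, 6.33 and 6.87 CPM against 5.39, 4.80 and 3.84 CPM, without overlap between the groups but also without passing (-0.41 ± 0.20, blocked adjusted p = 0.25).

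Adamts18 and Adamts17, orphan proteases whose substrates are less well known, were at 14.8, 16.0 and 19.4 CPM against 9.56, 11.6 and 9.65 CPM and at 10.4, 16.3 and 15.2 CPM against 9.30, 9.82 and 10.4 CPM. The groups did not overlap in Adamts18, and in Adamts17 the vehicle library of culture 1 lay next to the 10HDA range. Their log2 fold changes were -0.70 ± 0.16 and -0.51 ± 0.18, with adjusted p-values of 0.13 and 0.35 without and 0.0062 and 0.058 with the block. The call of Adamts18 was lost without culture 4 (0.12) and that of Adamts17 without culture 3 or 4 (0.23 and 0.25). Adamts10, which acts on fibrillin microfibrils, was at 36.1, 36.9 and 36.2 CPM with vehicle and at 38.0, 46.2 and 28.9 CPM with 10HDA, spread wider with 10HDA and centred at 0.057 ± 0.15.

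Among the 7 proteases that cleave lecticans, log2 fold changes ranged from -0.47 to 0.51, and none passed, against 7.50% of all genes with the block. Adamts1, the most abundant, was at 11.3, 12.9 and 13.8 CPM against 14.2, 12.1 and 15.9 CPM. Adamts9, with the smallest p of this group, was at 7.36, 10.2 and 8.69 CPM against 5.39, 6.03 and 7.78 CPM, lower in each culture by a log2 fold change of -0.47 ± 0.20 with a blocked adjusted p of 0.13. Of its exonic bases, 12.0% are shared with antisense genes, and whether the counting used strand is not given in the sources used here. The same share was 0 for Ncan, Adamts3, Adamts18, Col11a2, Col23a1 and Lama1, 2.26% for Tnc, 2.5% for Col5a1 and 3.86% for Lama2.

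Sequences just before the annotated start are shown for Col23a1, which passed in both fits, for Col11a2, which rose, and for Ncan and Tnc, the most abundant genes that fell. They are the 250 bases upstream of the RefSeq start on GRCm38.p6, read in the direction of transcription, and the RefSeq start lies 299 bases from the GENCODE gene start in Col11a2, 29 bases in Ncan and 0 in Col23a1 and Tnc. Capitals mark matches, on either strand, to the GC box GGGCGG, the CCAAT box, the TATA box TATAAA, the antioxidant response core TGACNNNGC or the amino acid response core TGATGNAA. RefSeq promoters were matched for 58 of the 84 genes, and Lama1 is not among them.
Col23a1 (chr11:51289670-51289919, plus strand): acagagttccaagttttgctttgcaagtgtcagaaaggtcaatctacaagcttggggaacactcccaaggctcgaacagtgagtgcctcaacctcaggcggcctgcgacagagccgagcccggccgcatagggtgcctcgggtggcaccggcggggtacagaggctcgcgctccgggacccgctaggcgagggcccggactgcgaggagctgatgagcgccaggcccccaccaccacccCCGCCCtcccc
Col11a2 (chr17:34038888-34039137, plus strand): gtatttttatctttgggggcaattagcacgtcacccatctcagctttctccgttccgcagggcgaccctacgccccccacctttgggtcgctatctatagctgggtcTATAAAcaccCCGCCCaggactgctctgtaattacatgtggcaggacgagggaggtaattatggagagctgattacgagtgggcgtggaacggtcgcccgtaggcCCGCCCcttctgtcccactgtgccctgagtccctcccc
Ncan (chr8:70120845-70121094, minus strand): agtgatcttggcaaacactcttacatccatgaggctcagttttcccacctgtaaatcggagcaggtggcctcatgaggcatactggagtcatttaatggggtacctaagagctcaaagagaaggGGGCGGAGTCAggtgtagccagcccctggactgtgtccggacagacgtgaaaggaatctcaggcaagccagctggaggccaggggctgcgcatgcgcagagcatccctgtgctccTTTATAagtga
Tnc (chr4:64047016-64047265, minus strand): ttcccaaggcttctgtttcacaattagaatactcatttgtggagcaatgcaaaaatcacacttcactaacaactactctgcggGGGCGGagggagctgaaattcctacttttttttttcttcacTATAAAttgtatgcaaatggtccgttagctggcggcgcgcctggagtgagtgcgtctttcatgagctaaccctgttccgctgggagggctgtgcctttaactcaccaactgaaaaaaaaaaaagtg
In Ncan the GC box and the antioxidant response core overlap, and Col11a2, Ncan and Tnc each hold a TATA box. The GC box was in 35 of the 58 matrix promoters (60.3%, against 32.7% of 32851 promoters of all genes), the TATA box in 8 (13.8% against 12.4%), CCAAT in 18 (31.0% against 33.8%), the antioxidant response core in 7 (12.1% against 10.2%) and the amino acid response core in 0 (0 against 3.45%). The median GC content was 60.0% in matrix promoters and 52.4% in all. These matches describe letters in a window and not bound sites.

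Several matrix genes lie side by side within 100 kb of each other. Col4a1 and Col4a2 share a start region on chromosome 8, where their starts are 21 bases apart on opposite strands, and their log2 fold changes were 0.099 and -0.011. Hapln1 and Vcan, neighbours on chromosome 13 at a gap of 43660 bases, were at -0.55 and -0.31, and Col6a2 and Col6a1 on chromosome 10 at -0.47 and -0.62. Adamts1 and Adamts5 on chromosome 16 were at 0.14 and -0.024. Of these genes only Col6a1 passed, in the blocked fit.

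Differences between cultures were tested across the same 15311 genes with treatment in the fit, and 1028 genes passed (6.71%), among them Tnr as the only matrix gene (F = 15.9, adjusted p = 0.0061). Tenascin-R (Tnr), a lectican-bridging protein of oligodendrocyte lineage cells and some interneurons, was at 90.7, 142 and 174 CPM with vehicle and at 109, 112 and 158 CPM with 10HDA. Culture 4 was the highest and culture 1 the lowest within each treatment, and without culture 4 the adjusted p was 0.67. Lamc1, Fn1, Vcan and Hapln1 had the next largest F (5.94, 5.92, 5.77 and 5.72) but did not pass, with adjusted p-values of 0.11 to 0.12. Of the marker genes, 4 of 8 tested for the oligodendrocyte lineage, 4 of 9 for astrocytes and 2 of 7 for interneurons differed between cultures. The summed astrocyte markers had the same order of cultures as Tnr under both treatments, at 1223, 1330 and 1505 CPM with vehicle and at 965, 1030 and 1185 CPM with 10HDA. The summed oligodendrocyte lineage markers did not, being highest in culture 3 (335, 424 and 344 CPM and 258, 367 and 298 CPM). Summed interneuron markers were lowest in culture 4 (582, 552 and 468 CPM and 459, 529 and 392 CPM). The sum of all 84 matrix genes had the order of Tnr under both treatments. Whether the makeup of the cultures set the level of Tnr was not tested.

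**Figure D4:**
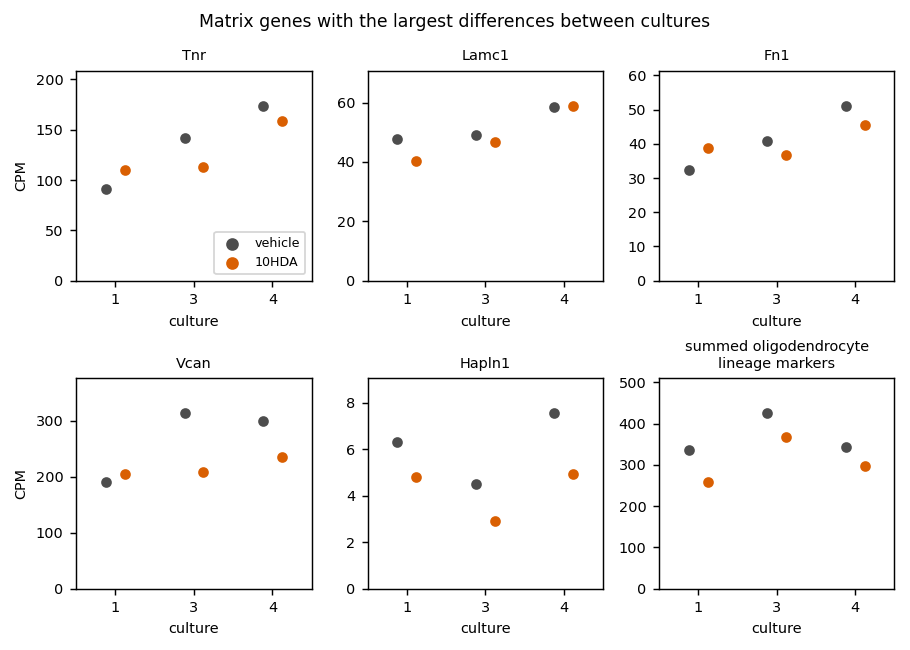
CPM after TMM scaling by culture for the 5 matrix genes with the largest F between cultures and for the summed markers of the oligodendrocyte lineage (gray, vehicle; orange, 10HDA; 1 library per point). Tnr is highest in culture 4 under both treatments, whereas these summed markers are highest in culture 3. Of the summed markers not drawn, those of astrocytes are highest in culture 4 and those of interneurons are lowest in it.

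Genes that build, bind or degrade the same matrix were examined through lists written from their known roles, and the share of all genes that passed with the block was 7.50%. Among 19 tested enzymes of collagen processing, 2 passed (10.5%): Crtap, part of the prolyl 3-hydroxylation complex (log2 fold change of 0.69 ± 0.17), and Plod1, a lysyl hydroxylase (0.47 ± 0.15), rose in the blocked fit, with adjusted p-values of 0.022 and 0.055, and none passed without the block. Of 21 tested receptors, 5 passed with the block (23.8%): the integrin chains Itga5 (0.65 ± 0.21), Itga6 (0.43 ± 0.11) and Itgb8 (0.44 ± 0.16) and the collagen receptor Ddr2 (0.75 ± 0.19) rose, and the syndecan Sdc3 (-0.31 ± 0.10) fell. Itga6, a chain of laminin-binding integrins, was at 32.1, 40.3 and 38.1 CPM with vehicle and at 49.7, 50.8 and 48.2 CPM with 10HDA, and Ddr2 at 11.4, 15.9 and 18.4 CPM and at 26.7, 20.6 and 30.1 CPM. In both genes all 10HDA libraries were above all vehicle libraries.

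Of 13 tested matrix metalloproteinases and their inhibitors, the membrane-bound protease Mmp14 (-0.57 ± 0.14) and the inhibitor Timp2 (-0.34 ± 0.10) fell with the block (15.4%). Of 18 tested hyaluronan and chondroitin sulfate genes 1 passed (5.56%), Cspg4, the NG2 proteoglycan of oligodendrocyte precursors and pericytes, which fell without the block too (16.6, 20.6 and 19.8 CPM against 8.60, 11.5 and 10.2 CPM, adjusted p = 0.049). Of 21 other matrix glycoproteins, Reln (-0.63 ± 0.10) and the small proteoglycan Dcn (-1.02 ± 0.17) fell without the block, each at an adjusted p of 0.042, and with it Spon1 also fell and Fbln5 rose (19.0% in all). Reln, the secreted guidance protein of Cajal-Retzius cells and interneurons, was at 123, 153 and 141 CPM with vehicle and at 91.8, 89.7 and 87.7 CPM with 10HDA. Of 7 tested interneuron markers, 6 were lower and 1 higher with 10HDA in the mean. With the block 2 of the 7 fell (28.6%, against 7.50% of all genes). The part of this difference in the lower Reln level was not tested. None of the 5 basement membrane linkers, which include agrin and the nidogens, passed in either fit.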

How the data were processed

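RNA of 6 libraries was analysed, and 0 further sample columns were in the table. The authors aligned untrimmed 50 bp single-end reads to mm10 with Subjunc (Subread 1.4.4), counted them per Gencode gene with featureCounts, and deposited raw counts, neither normalized nor filtered. Libraries were made with a strand-specific kit, and whether the counting used strand is not given in the sources used here. Symbols and coordinates are from GENCODE M21 (GRCm38), which matched 98.0% of identifiers. The matrix genes and all lists were chosen with earlier results of these data known.

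Genes reaching 1 CPM in 3 or more libraries were TMM-scaled and tested by quasi-likelihood (glmQLFTest of edgeR 4.0.16, R 4.3.3), at a Benjamini-Hochberg adjusted p of 0.1, without and with culture as a block. The submitters' processing notes name edgeR 3.4.2 and R 3.0.2, and the methods of the study a minimum of 10 CPM, which was run as an alternative. Standard errors are the fold change over the square root of F. The labels name the culture of each library, so the numbers pair libraries. Deviations from the treatment means correlated across genes at 0.29, 0.23 and 0.53 within cultures 1, 3 and 4 and at -0.39 to 0.14 between them. Replicates of a treatment differed by more than sampling noise (chi-square per degree of freedom of 4.41 to 16.1). Nothing states that the cultures came from separate litters. Without the block, p-values therefore measure the spread between the libraries of these cultures. With it, they measure how far the treatment difference varied among these cultures. An exact permutation test of 3 against 3 cannot go below 0.1, and none is given.

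Named are the matrix genes past the threshold in either fit, in each role the most abundant and the one with the smallest p, the 10 genes listed by name, the 5 with the largest culture F, and list genes past the threshold. Lama5, Lamb1, Lamb2, Col4a1, Col5a2, Col5a3, Col6a2, Col6a3, Col25a1, Adamts2 and genes placed by level or position were added after their values were seen. The motifs were chosen by hand. Alternatives were other scalings, filters and thresholds, DESeq2 1.42.0, limma-voom (limma 3.58.1), and each library or culture left out. The values of 1 matrix gene are not reported here, though it is in the counts and medians. Scripts were tested on simulated data.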

Additional observations from a re-analysis of the deposited data

How the results depend on the processing

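The labels pair libraries by culture, and with culture as a replicate block the calls went from 78 to 1148 over all genes and from 2 to 13 over matrix genes, including both of the unblocked calls. Without the block, matrix and all calls were 7 and 180 with DESeq2's Wald test, 1 and 63 with limma-voom, 1 and 66 at 10 CPM (27 matrix genes tested), 8 and 636 with no filter but 1 count, and 0 and 30 at a threshold of 0.05. They were 2 and 58 with library size alone, where 30 of 58 calls were higher against 28 of 78, and 2 with the other scalings. Adjusted p ranged from 6.5e-08 to 0.55 for Lama1 and from 7.8e-06 to 0.39 for Col23a1. Leaving out 1 library gave 0 to 6 and 0 to 570 calls, and leaving out 1 culture 0 to 0 and 0 to 79. With 0 calls over all genes, 778 had an unadjusted p under 0.05 without the 10HDA library of culture 1, and 1020 without culture 3.

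With the block, calls were 11 and 797 without culture 1, 11 and 1208 without culture 3 and 4 and 456 without culture 4. Without culture 1 the 11 matrix genes were Lama1, which rose, and Ncan, Tnc, Vcan, Lama2, Col5a1, Col22a1, Col23a1, Adamts3, Adamts17 and Adamts18, which fell. Chosen after seeing the data, the block with library size alone gave 12 and 1461 (1089 higher), with DESeq2 size factors 14 and 1128, with DESeq2's Wald test 7 and 419, and with limma-voom 13 and 1152. Col6a1, Lama2 and Adamts17 were lost with DESeq2's Wald test (0.34 to 0.39), which gave Col22a1 and Lama3 no adjusted p. Calls between cultures went from 1 and 1028 to 0 and 9 with no treatment term, to 4 matrix genes (Fn1, Lamc1, Tnr and Vcan) at 10 CPM, and to 537 genes at 0.05. Without culture 1, 3 or 4 they were 2, 8 and 0 matrix genes and 1280, 2303 and 55 genes.

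Uncalled genes near 0 changed sign. With library size alone Col4a2 was 0.053 and Fn1 0.025, and with the block as well 0.057 and 0.040. With the block and culture 3 left out, Adamts10 was -0.13, Col16a1 -0.14, Fn1 0.026, Sparc -0.069 and Tnr 0.047, and with culture 4 left out Col4a2 was 0.085 and Fn1 0.035. With libraries or cultures left out, Sparc ranged from -0.072 to 0.12, Col4a2 from -0.10 to 0.084, Fn1 from -0.19 to 0.14, Lamc1 from -0.26 to 0.023, Tnr from -0.32 to 0.12, Adamts10 from -0.13 to 0.20 and Col16a1 from -0.14 to 0.12. The median over matrix genes was -0.094 to 0.025 under all settings. At this depth the 17 genes under the CPM limit were compared only with no filter.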
